A study of Mus musculus with 12 samples.

Results

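Interferon-stimulated genes were followed in follicular B cells, the recirculating B cells of the spleen, from male 129SvEv mice aged 8 weeks. The cells were wild type or labelled Zfx cko, an allele for which the sources give no construction, deleted part or Cre driver. The sort gate was B220+, AA4.1-, CD23 high and CD21 intermediate. Anti-IgM, which cross-links the B cell receptor, was present at 10 µg/mL during culture for 0, 2 or 12 h. The 12 arrays formed 6 groups of 2, by genotype and time, and neither a culture without anti-IgM nor a culture with added interferon was among them, so the antibody and the culture itself cannot be told apart. The members were a list of 39 genes, each read through its probe set with the highest mean over the 12 arrays. Of these 39 genes, 37 had a probe set of their own among 18193 such genes on the array, and 34 passed the filter on low signal, among 11709 genes that did. Isg15 was read only through a probe set shared with other genes and Ifi44 through no probe set listed in the annotation, and both were not analysed here. Oas3 (signal 4.98 to 22.4), Oasl2 (0.554 to 22.7) and Mx2 (1.83 to 8.36) lay below the filter on these arrays and were not tested.

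Type I interferons bind the receptor made of Ifnar1 and Ifnar2, whose kinases Jak1 and Tyk2 activate transcription factors that include Stat2. A complex that holds Stat2 and Irf9 enters the nucleus and binds the interferon-stimulated response element in front of target genes. The targets include sensors of foreign nucleic acid, enzymes and binding proteins that block viral replication, the ubiquitin-like ISG15 system, and the immunoproteasome and peptide transporter of antigen presentation. Many of them are expressed at a low tonic level in resting lymphocytes without infection.

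Most of these genes lost signal after anti-IgM in both genotypes. In wild-type cells 25 of the 34 were lower at 2 h than at 0 h (73.5%, against 37.4% of all genes tested) and 1 was higher (2.94%, against 24.4%). In cko cells 27 were lower (79.4%, against 40.4% of all genes) and 1 was higher (against 24.8%). The median member differed by -1.11 on the log2 scale in wild type and by -1.43 in cko, where the medians of all genes were -0.24 and -0.32. Both genotypes were lower at 2 h for 25 members, a joint count for which the share of all genes was not computed. With each array scaled to its median signal 49.5% of all called genes were higher in wild type and 51.4% in cko, in place of 39.5% and 38.0%, and the members' medians were -0.91 and -1.14. Calls are at an adjusted p under 0.05 (limma, Benjamini-Hochberg over all 11709 genes), and differences are of log2(signal + 16), which understates the change of dim genes. The series' design description says that labelled RNA was hybridized in duplicate, and nothing in the labels says that duplicate arrays came from separate mice. These p-values therefore measure only the spread between arrays, which may be technical.

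At 12 h the loss was smaller and less uniform. In wild type 21 of 34 members were lower than at 0 h (against 24.1% of all genes) and 2 were higher (against 25.8%). The cko counts were 25 lower (against 34.1%) and 2 higher (against 26.9%). The median member stood at -0.70 in wild type and -1.23 in cko, where the medians of all genes were 0.02 and -0.19. The same 19 members were lower in both genotypes, 1 was higher in both (Bst2), and 2 were called in opposite directions (Trim30a and Ifi35). For these joint counts, too, the share of all genes was not computed. With median scaling 59.8% of all called genes in cko were higher, in place of 44.1%, and the members' median was -0.95. The wild-type and cko shares are drawn side by side with those of all genes in the plot of shares called.

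**Figure D1:**
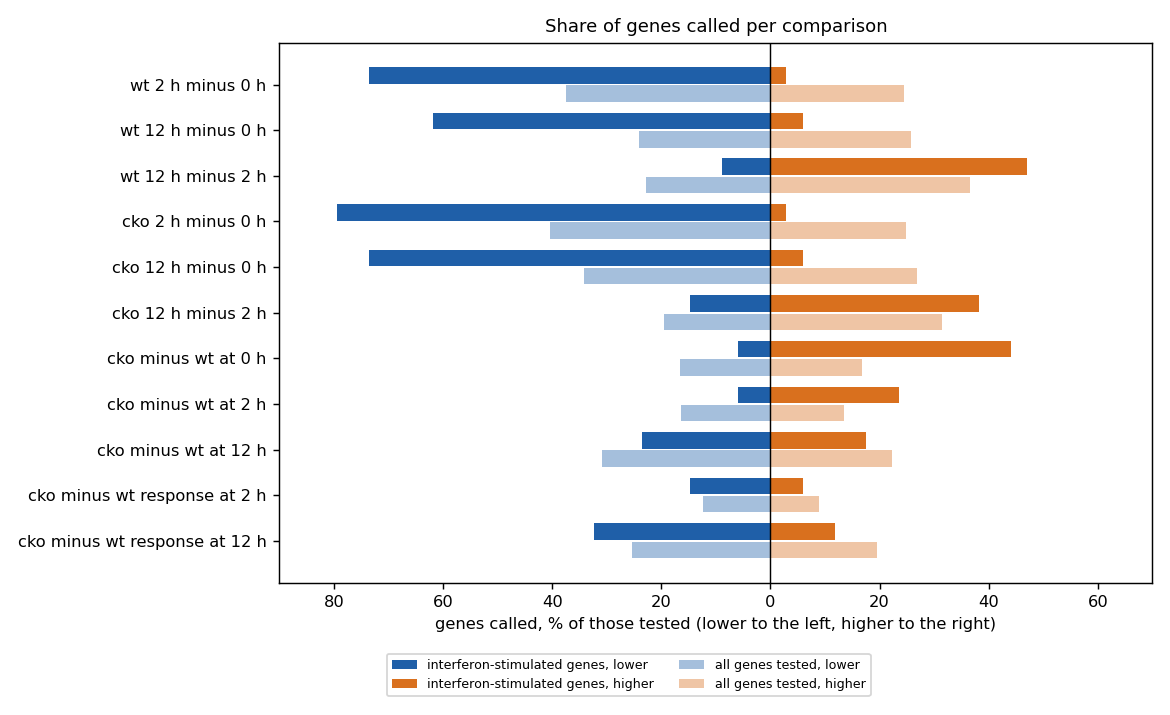
Share of genes called in each of the 11 comparisons, in percent of genes tested; bars to the left count lower and bars to the right higher genes, dark for the 34 interferon-stimulated genes and pale for all 11709 genes. The members' lower share stands at 73.5% and 79.4% at 2 h, against 37.4% and 40.4% of all genes, while at 0 h their share higher in cko is 44.1% against 16.7%.

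Array quality moved with some of these comparisons. The 5′ to 3′ signal ratio of the actin control probes, which falls as RNA or its amplified copies shorten, was 1.80% to 3.33% on 6 arrays, those of both genotypes at 0 h and of wild type at 12 h. It was 8.41% to 19.1% on the other 6, those of both genotypes at 2 h and of cko at 12 h. The comparisons of 12 h with 0 h in wild type, of cko with wild type at 0 h and at 2 h, and of 12 h with 2 h in cko lie within 1 such set of arrays. The response difference at 2 h crosses between the sets in both genotypes, but not by equal amounts. The ratio rose from between 3.27% and 3.33% to between 8.41% and 8.51% in wild type. In cko it rose from between 1.80% and 1.99% to between 10.6% and 10.8%. At 12 h it was 2.11% to 2.27% in wild type and 19% to 19.1% in cko, so each group had its own range even within a set. The other comparisons cross between the sets. With the set as a term in a model with 1 genotype effect and 1 effect per time, 19 members were lower at 2 h (against 23.7% of all genes) and 20 at 12 h (against 21.6%). Within a time the set differs only at 12 h, so its term comes from the genotype difference there against the other times. It cannot separate array quality from a response of cko cells at 12 h, and the 2 h values of this model are what is left after that term. The summed signal of 8 B cell markers, read on each array, was 77650 to 78580 at 0 h and 30600 to 32640 at 2 h in wild type. In cko it was 92380 to 92720 at 0 h and 28620 to 28830 at 2 h. Of these markers, Cd22, Pax5 and Cd79b fell most in wild type at 2 h, and Cd79a and Ms4a1 were not called. All 10 myeloid markers together gave 18150 to 18740 in wild type at 0 h, 8203 to 8367 in cko at 0 h and 2003 to 2237 in cko at 2 h. The 10 T and NK cell markers gave 2902 to 2925 in wild type and 2722 to 3038 in cko at 0 h. These sums were 1325 to 1366 and 1385 to 1487 at 2 h, and 544 to 616 and 962 to 994 at 12 h. Cd2 had the highest signal of the 10, up to 1670 where the next, Nkg7, reached 426. It fell most at 12 h in wild type (-3.95, SE 0.11), where Cd8a and Klrd1 were not called. Cd2 thus weighs most in the fall of these sums in wild type, and they do not give the amount of T and NK cells. The 6 markers read for plasmacytoid dendritic cells, a main source of type I interferon, summed to 6343 to 6473 in wild type and 8023 to 8060 in cko at 0 h, 2768 to 3147 over both genotypes at 2 h, and 6618 to 6736 and 10800 to 11720 at 12 h. Of these 6, Ly6d was the brightest on every array (1550 to 10300, the others at most 1070) and weighs most in the sums. The sums therefore do not give the amount of plasmacytoid dendritic cells. Ly6d, Pacsin1 (222 to 1070) and Cox6a2 were called lower at 2 h in both genotypes, while Siglech, a defining marker, gave 5.22 to 53.9 and was not. The part of these markers in the results was not tested, and fewer cells of a type and less RNA per cell cannot be told apart in such bulk samples. Zfx itself was higher on the cko arrays at its brightest probe set, with a mean of 2403 against 1012 at 0 h, and this probe set does not check the genotype because the sources do not place the deleted part.

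Some promoters carry the response element and are shown for 7 members that moved in different ways. The letters GAAA, any 2 bases and GAAA again, the core of the element on either strand (overlapping matches counted), occurred between 250 bases before and 50 bases after the start site in 12 of the 30 members with a RefSeq promoter (40%). Among all 27025 genes with a promoter of that length it occurred in 1079 (3.99%). The letters TTCNNNGAA, the gamma-activated site, which reads the same on both strands, occurred in 8 of the 30 (26.7%), against 9.55% of all genes. Stretches around the matches are given 5′ to 3′ on the gene's strand, with the matched letters in capitals (RefSeq, GRCm38.p6). Stat2 and Oas1a fell at 2 h in wild type, Ifit3 fell too, Ifit1 and Rsad2 were not called, Bst2 rose and Trim30a fell and later rose in cko:
Stat2: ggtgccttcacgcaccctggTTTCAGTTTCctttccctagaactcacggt
Ifit1: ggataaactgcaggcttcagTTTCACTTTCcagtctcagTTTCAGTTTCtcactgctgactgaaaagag
Ifit3: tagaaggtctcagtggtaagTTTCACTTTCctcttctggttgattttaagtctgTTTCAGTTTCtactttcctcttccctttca
Oas1a: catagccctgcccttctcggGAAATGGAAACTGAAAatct
Rsad2: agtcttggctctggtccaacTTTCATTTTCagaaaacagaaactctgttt
Bst2: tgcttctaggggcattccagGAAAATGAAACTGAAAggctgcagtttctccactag
Trim30a: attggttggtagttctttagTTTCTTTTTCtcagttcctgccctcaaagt

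These windows lie at chr10:128270256-128270305 (plus) for Stat2, chr19:34640765-34640833 (plus) for Ifit1, chr19:34583353-34583436 (plus) for Ifit3, chr5:120907526-120907565 (minus) for Oas1a, chr12:26456543-26456592 (minus) for Rsad2, chr8:71537567-71537622 (minus) for Bst2 and chr7:104465200-104465249 (minus) for Trim30a, with plus or minus for the strand. Ifit1 and Ifit3 both hold 2 separate matches, in Oas1a and Bst2 the 2 matches overlap, and Stat2, Rsad2 and Trim30a hold 1. Among members with a promoter that passed the filter, the element's letters were found in 5 of the 19 that were lower in wild type at 2 h (26.3%) and in 5 of the 7 that were not (71.4%). A match is a description of these letters, and no binding was measured.

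Among the sensors, Ddx58, which encodes RIG-I and detects viral RNA, was the only one called lower at 2 h in wild type. Its signal was 1089 and 1067 at 0 h, 190.3 and 202 at 2 h and 261 and 235 at 12 h in wild type, and 1044 and 1136, 188 and 186, and 199 and 158 in cko. Every array after anti-IgM lay below every array at 0 h, and the difference was -2.37 (SE 0.12) at 2 h in wild type (adjusted p = 9.8e-10) and -2.44 (SE 0.12) in cko. Ifih1, encoding the long double-stranded RNA sensor MDA5, gave 155 and 199 at 0 h, 189.5 and 175 at 2 h and 147 and 167 at 12 h in wild type, and 218 and 198, 179 and 153, and 82.3 and 87.5 in cko. The groups of Ifih1 overlapped at 2 h in wild type (0.05, SE 0.17, not called), and the cko arrays at 12 h were the lowest (-1.15, SE 0.17 against 0 h, called). Dhx58, whose product LGP2 tunes both sensors, gave 59.9 and 36.6 at 0 h, 54.0 and 34.1 at 2 h and 25.3 and 32.9 at 12 h in wild type, and 91.0 and 84.3, 56.1 and 58.6, and 31.5 and 65.0 in cko. No comparison of Dhx58 was called. Zbp1, a sensor of Z-form nucleic acid, gave 42.9 and 47.7 at 0 h, 18.7 and 25.9 at 2 h and 34.6 and 15.5 at 12 h in wild type, and 59.0 and 64.8, 26.9 and 25.8, and 62.5 and 63.3 in cko. Its fall at 2 h was called in cko (-0.88, SE 0.29) and not in wild type (-0.68, SE 0.29, adjusted p = 0.054), and its cko arrays returned at 12 h to the level of 0 h. Without cko 0 h replicate 2 the cko fall was -0.82, and without cko 2 h replicate 1 or 2 it was -0.90 or -0.86, and none of these was called.

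All 4 signalling and transcription factors were lower at 2 h in both genotypes, against 37.4% of all genes in wild type and 40.4% in cko. Stat2, a transcription factor of the interferon complex, gave 82.9 and 67.6 at 0 h, 5.02 and 11.6 at 2 h and 117 and 33.8 at 12 h in wild type, and 179 and 196, 5.47 and 12.6, and 59.2 and 65.0 in cko. Its 2 h arrays were the lowest in both genotypes, by -1.92 (SE 0.38) in wild type and -3.04 (SE 0.38) in cko, while the 2 wild-type arrays at 12 h lay on either side of the 0 h arrays. The other Stat2 probe set past the filter moved by 0.12 in wild type and -0.57 in cko. Irf9, the DNA-binding member of the same complex, gave 236 and 241 at 0 h, 165 and 168 at 2 h and 185 and 169 at 12 h in wild type, and 321 and 339.6, 139 and 166, and 190.0 and 159 in cko. The Irf9 fall at 2 h was -0.48 (SE 0.15) in wild type and -1.04 (SE 0.15) in cko. Irf7, which drives the amplification of type I interferon production, gave 349 and 220.0 at 0 h, 142 and 106 at 2 h and 95.5 and 79.2 at 12 h in wild type, and 270.0 and 249, 123 and 128, and 32.1 and 71.3 in cko. Its level fell by 1.08 (SE 0.27) at 2 h and by 1.51 (SE 0.27) at 12 h in wild type, and by 0.96 (SE 0.27) and 2.09 (SE 0.27) in cko, so that the cko arrays at 12 h were the lowest. Irf1, a factor induced most strongly by interferon gamma, gave 2894 and 3037 at 0 h, 1329 and 1205 at 2 h and 947 and 963 at 12 h in wild type, and 3991 and 4336, 1537 and 1659, and 942 and 881 in cko. It fell with each step in time in both genotypes, reaching -1.62 (SE 0.08) at 12 h in wild type and -2.17 (SE 0.08) in cko. The Irf9 fall at 12 h in wild type (-0.40) was not called when either array of those 2 groups was left out (-0.34 to -0.46), and the Irf7 fall at 2 h was -0.77 and not called without wild type 0 h replicate 1.

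The 3 IFIT genes, whose proteins bind foreign RNA and block its translation, were brightest in cko at 0 h. Ifit1 gave 56.5 and 76.0 at 0 h, 39.0 and 65.5 at 2 h and 11.5 and 7.22 at 12 h in wild type, and 241 and 235, 56.0 and 52.8, and 40.5 and 35.6 in cko. Its wild-type arrays overlapped between 0 h and 2 h (-0.29, SE 0.26, not called) and fell at 12 h (-1.69, SE 0.26), whereas the cko arrays were lower already at 2 h (-1.85, SE 0.26). Ifit2 gave 106 and 109.7 at 0 h, 17.5 and 28.0 at 2 h and 63.7 and 47.7 at 12 h in wild type, and 271 and 280.1, 36.4 and 34.1, and 97.5 and 85.2 in cko. Both genotypes dropped at 2 h (-1.69, SE 0.22 and -2.51, SE 0.22) and regained part of the signal at 12 h. Ifit3 gave 111 and 103 at 0 h, 44.2 and 41.1 at 2 h and 52.8 and 26.7 at 12 h in wild type, and 276 and 282, 82.8 and 49.6, and 45.1 and 72.5 in cko. Its falls were -1.07 (SE 0.28) in wild type and -1.87 (SE 0.28) in cko at 2 h, with no called change from 2 h to 12 h. The Ifit2 fall at 12 h in wild type (-0.80) was -0.63 and not called without wild type 12 h replicate 2.

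In the OAS family, whose enzymes make the oligoadenylates that activate RNase L, 2 of the 3 genes tested fell at 2 h in each genotype. The shares of all genes lower at 2 h were 37.4% in wild type and 40.4% in cko. Oas1a gave 453 and 427 at 0 h, 97.0 and 108 at 2 h and 149 and 166 at 12 h in wild type, and 784 and 853, 198 and 214, and 179 and 198 in cko. No array after anti-IgM reached the lowest 0 h array of its genotype, with differences at 2 h of -1.94 (SE 0.13) in wild type and -1.91 (SE 0.13) in cko. Oas2 gave 79.6 and 109 at 0 h, 46.9 and 48.5 at 2 h and 76.6 and 55.7 at 12 h in wild type, and 109.9 and 105, 36.7 and 38.0, and 47.2 and 24.7 in cko. The fall of Oas2 at 2 h was -0.78 (SE 0.27) in wild type, which was not called without wild type 0 h replicate 2 (-0.59) or wild type 2 h replicate 1 (-0.76) or 2 (-0.80), and -1.21 (SE 0.27) in cko. Oasl1, an enzymatically inactive relative that restrains Irf7 translation, gave 136 and 81.8 at 0 h, 142 and 103 at 2 h and 68.5 and 99.7 at 12 h in wild type, and 216 and 98.8, 154 and 125, and 89.9 and 73.8 in cko. Its arrays overlapped between times in both genotypes at 2 h, and no comparison was called.

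The other antiviral effectors divided. Bst2, which encodes tetherin and holds budding virus particles at the cell surface, was the one member that rose at both times in wild type. Its signal was 20.3 and 38.9 at 0 h, 108 and 114 at 2 h and 118 and 101 at 12 h in wild type, and 65.6 and 77.9, 78.3 and 127, and 553 and 571 in cko. Wild-type arrays after anti-IgM lay above both 0 h arrays (1.51, SE 0.24 at 2 h and 1.48, SE 0.24 at 12 h), and the cko rise came at 12 h (2.72, SE 0.24, a 6.60-fold change) with no call at 2 h (0.41, SE 0.24). With the set of control ratios as a term the 2 h value was -0.83. Rtp4, an interferon-induced RNA-binding and chaperone protein, gave 259 and 225 at 0 h, 51.0 and 56.1 at 2 h and 67.5 and 42.6 at 12 h in wild type, and 500.4 and 575, 53.3 and 39.5, and 65.0 and 54.8 in cko. It fell by 1.89 (SE 0.22) at 2 h in wild type and by 3.16 (SE 0.22) in cko, and its 2 h arrays read 39.5 to 56.1 over both genotypes. Cmpk2, a mitochondrial nucleotide kinase next to Rsad2 on the chromosome, gave 171 and 122 at 0 h, 15.5 and 10.2 at 2 h and 3.08 and 11.5 at 12 h in wild type, and 126 and 85.6, 19.8 and 38.0, and 0.392 and 13.5 in cko. All its later arrays lay below the 0 h arrays, by -2.48 (SE 0.37) at 2 h and -2.81 (SE 0.37) at 12 h in wild type.

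Rsad2, which encodes viperin, an enzyme that makes a chain-terminating nucleotide, gave 571 and 395 at 0 h, 489.9 and 361 at 2 h and 127 and 98.1 at 12 h in wild type, and 145 and 161, 227 and 229, and 81.1 and 102 in cko. Its wild-type arrays overlapped at 0 h and 2 h and were lower at 12 h (-1.94, SE 0.20). In cko the 2 h arrays were above those of 0 h (0.53, SE 0.20, adjusted p = 0.032), the only rise called at 2 h in that genotype. That call was lost when any 1 of the 4 arrays compared was left out (0.47 to 0.60), and the count of higher members was then 0 without cko 0 h replicate 1 or cko 2 h replicate 2. The other Rsad2 probe set past the filter gave -0.02, and with the set of control ratios as a term the value was -0.75. The cko fall of Rsad2 at 12 h (-0.66, SE 0.20) was -0.59 without cko 0 h replicate 2 and -0.52 without cko 12 h replicate 1, and neither was called.

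Samhd1, which hydrolyses deoxynucleotides, had signals from 2228 to 9513 and fell by 1.83 (SE 0.08) at 2 h in wild type and by 1.93 (SE 0.08) in cko. Mx1, a dynamin-like GTPase, ranged from 10.9 to 92.0 and fell by 0.77 (SE 0.28) in wild type at 2 h, a call that was lost when any 1 of the 4 arrays was left out (-0.68 to -0.86), and by 1.61 (SE 0.28) in cko. Eif2ak2, the kinase PKR that halts translation, ranged from 10.1 to 58.1 and was called in no comparison.

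All 7 modifiers of the ISG15, ubiquitin and ADP-ribose systems that were tested fell at 2 h in both genotypes. Of all genes 37.4% were lower in wild type and 40.4% in cko. Trim25, a ubiquitin ligase that activates RIG-I, gave 10412 and 10641 at 0 h, 4122 and 4125 at 2 h and 6629.7 and 6925 at 12 h in wild type, and 6884 and 7056, 2069.6 and 2101, and 2866 and 2701 in cko. Its duplicates were close together, and it differed by -1.35 (SE 0.05) in wild type and -1.73 (SE 0.05) in cko at 2 h. Usp18, the protease that removes ISG15 and blocks the interferon receptor, gave 42.2 and 77.7 at 0 h, 9.07 and 6.59 at 2 h and 25.4 and 22 at 12 h in wild type, and 80.7 and 104, 29.8 and 21.7, and 38.7 and 39.7 in cko. Its arrays at 2 h were below those at 0 h in both genotypes (-1.63, SE 0.30 and -1.38, SE 0.30), and part of the signal came back at 12 h in wild type (0.74, SE 0.30, adjusted p = 0.05, just under the threshold). Parp14, a mono-ADP-ribosyltransferase, gave 2177 and 2004 at 0 h, 665 and 627 at 2 h and 1173 and 1273 at 12 h in wild type, and 2781 and 2450.2, 914 and 935, and 1182 and 1207 in cko. Dtx3l, a ubiquitin ligase that works with Parp9, gave 641 and 615 at 0 h, 149 and 163 at 2 h and 278 and 253 at 12 h in wild type, and 614 and 727, 197 and 156, and 265 and 265 in cko. Both followed the same course in each genotype, a deep fall at 2 h (-1.67 and -1.90 in wild type) and a partial return at 12 h (-0.77 and -1.20).

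The falls of Usp18 at 12 h were not called without wild type 0 h replicate 2 (-0.55) or wild type 12 h replicate 1 (-0.96) or 2 (-0.83), nor in cko without cko 0 h replicate 2 (-0.81) or cko 12 h replicate 1 (-0.95) or 2 (-0.98). The return of Usp18 at 12 h in wild type (0.74) was 0.66 to 0.81 over the 10 left-out arrays that cost it the call. Parp9 ranged from 319 to 574 and fell by 0.74 (SE 0.10) and 0.45 (SE 0.10) at 2 h. Its fall at 12 h in wild type (-0.34) was -0.27 without wild type 0 h replicate 1 and -0.26 without wild type 12 h replicate 1, and neither was called. Herc6, the ligase that attaches ISG15 in mice, ranged from 12.0 to 124 and fell by 0.97 (SE 0.34) in wild type and 1.52 (SE 0.34) in cko. In wild type that fall was -0.79 without wild type 0 h replicate 2 and -0.58 without wild type 2 h replicate 1, and neither was called. Trim30a, a ligase that restrains innate signalling, was lowest at 2 h in both genotypes (-1.04, SE 0.08 and -0.85, SE 0.08). At 12 h Trim30a stayed below 0 h in wild type (-0.49, SE 0.08) and stood above it in cko (0.40, SE 0.08). Its other probe set past the filter gave -0.95 at 12 h in cko, and the set of control ratios as a term gave -0.44, so the direction there rests on the probe set and the model.

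The 3 antigen-processing genes moved together, with all 3 lower at 2 h in both genotypes and all 3 higher at 12 h than at 2 h. Of all genes 37.4% in wild type and 40.4% in cko were lower at 2 h. From 2 h to 12 h 36.6% and 31.4% of all genes were higher. Psmb9, a catalytic subunit of the immunoproteasome, gave 2992 and 2763 at 0 h, 409 and 390.0 at 2 h and 1184 and 1144 at 12 h in wild type, and 3496 and 3434, 822 and 817, and 2106 and 2284 in cko. The arrays of the 6 groups did not overlap, and the difference at 2 h was -2.80 (SE 0.07) in wild type, a 6.96-fold fall, and -2.06 (SE 0.07) in cko. Psmb8, another catalytic subunit, gave 5466 and 5605 at 0 h, 1819.7 and 1705 at 2 h and 5645 and 5796 at 12 h in wild type, and 6327 and 6118, 2478 and 2221, and 6028 and 6068 in cko. It fell at 2 h (-1.64, SE 0.06 and -1.40, SE 0.06) and was back near its 0 h signal at 12 h (0.05, SE 0.06 and -0.04, SE 0.06, not called). Tap1, which carries peptides into the endoplasmic reticulum, gave 1922 and 2032 at 0 h, 432 and 479.7 at 2 h and 1109 and 1097 at 12 h in wild type, and 1852 and 1983, 607 and 602, and 794 and 832 in cko. Its fall was -2.08 (SE 0.08) in wild type and -1.64 (SE 0.08) in cko at 2 h, and at 12 h it had returned only in part.

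Xaf1, an interferon-induced antagonist of the apoptosis inhibitor XIAP, had the largest change of the list. Its signal was 1894 and 1719 at 0 h, 21.1 and 40.5 at 2 h and 415 and 358 at 12 h in wild type, and 2156 and 2185, 40.7 and 49.3, and 239 and 283 in cko. The 4 arrays at 2 h gave 21.1 to 49.3 where the 4 at 0 h gave 1719 to 2185, a 39.8-fold fall in wild type (-5.31, SE 0.18, adjusted p = 1.3e-11) and a 35.9-fold fall in cko (-5.17, SE 0.18). At 12 h it was still -2.18 (SE 0.18) in wild type and -2.99 (SE 0.18) in cko. Ifi35, a leucine zipper protein induced by interferons, gave 8834 and 9012 at 0 h, 5610.5 and 5612 at 2 h and 9920.5 and 10508 at 12 h in wild type, and 12256 and 12540.0, 6657 and 6865, and 6696 and 6809 in cko. It fell at 2 h in both genotypes (-0.67, SE 0.05 and -0.87, SE 0.05) and ended above 0 h in wild type (0.19, SE 0.05) but below it in cko (-0.88, SE 0.05). Another of its probe sets past the filter moved the other way in cko, by 0.63 at 2 h and 0.74 at 12 h, so the direction of Ifi35 in cko rests on which probe set is read; with the set of control ratios as a term the 2 h value was 0.20. Lgals3bp, a secreted glycoprotein, gave 46.2 and 35.6 at 0 h, 17.6 and 3.65 at 2 h and 20.3 and 22.4 at 12 h in wild type, and 3.09 and 69.4, 33.9 and 28.1, and 19.2 and 25.3 in cko. Duplicates of Lgals3bp lay as far apart as 3.09 and 69.4, and no comparison was called.

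**Figure D2:**
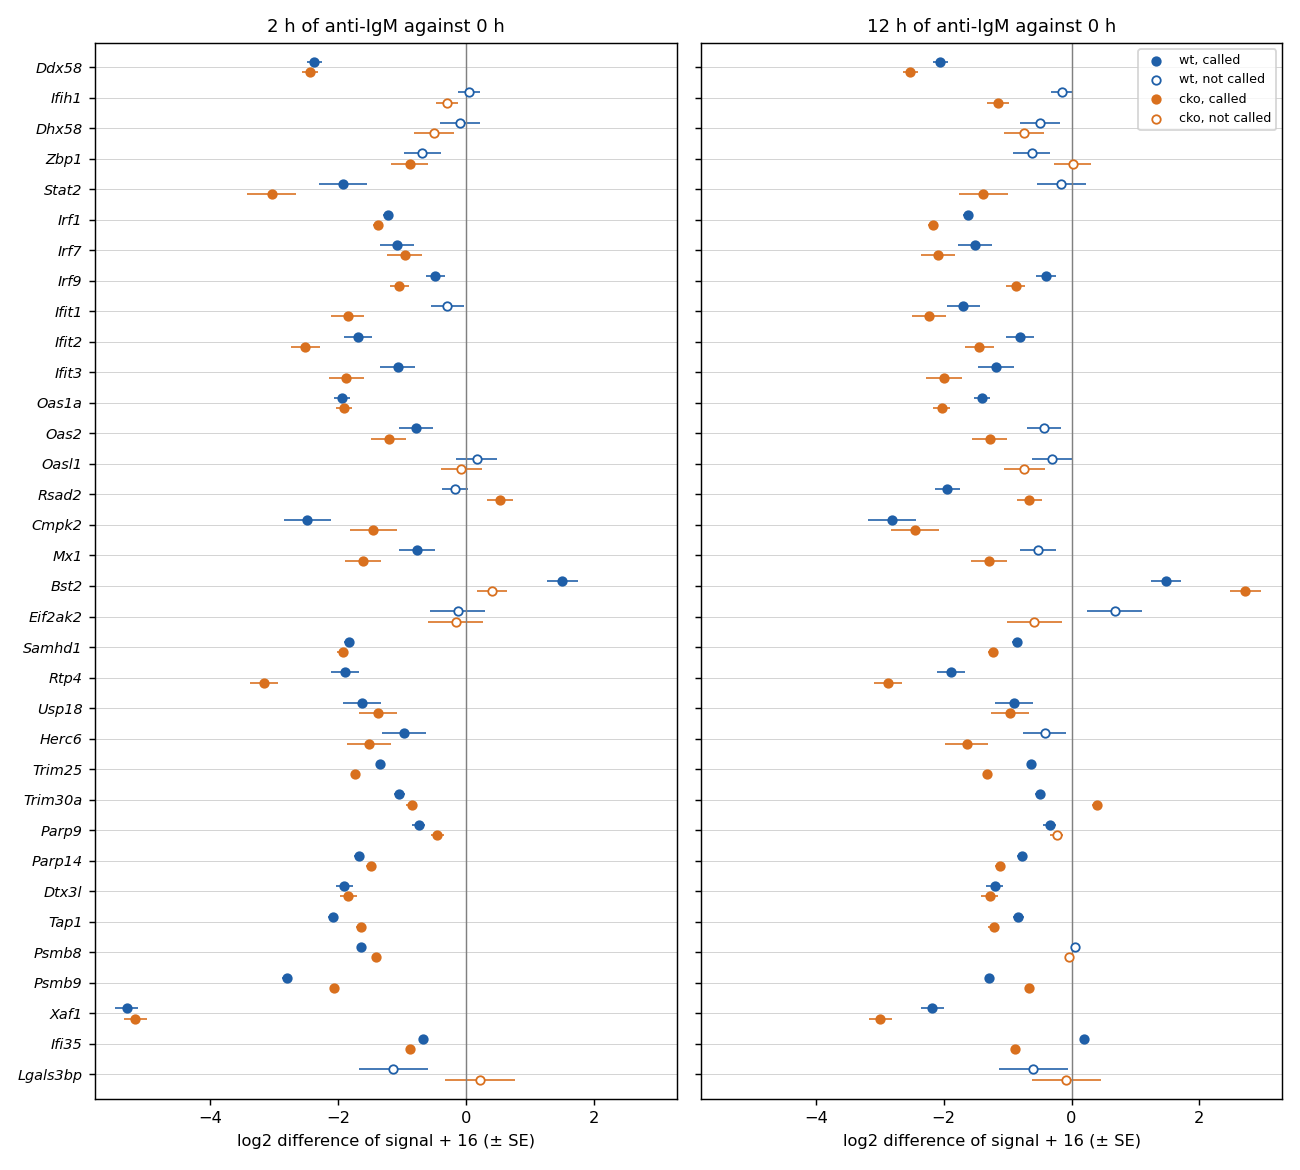
Log2 difference of signal + 16 (points, with SE as bars) between 2 h and 0 h of anti-IgM (left) and between 12 h and 0 h (right) for the 34 members, in wild type (blue) and cko (orange); filled points passed the adjusted p under 0.05. Most points lie left of 0 in both panels, Xaf1 farthest at -5.31 and -5.17 at 2 h, while Bst2 lies to the right.

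From 2 h to 12 h some members regained signal, in shares not far above those of all genes. In wild type 16 of 34 were higher at 12 h than at 2 h (47.1%, against 36.6% of all genes) and 3 were lower (8.82%, against 22.8%), and the 16 were all among those that had fallen at 2 h. With median scaling 50.5% of all called genes were higher, in place of 61.6%. The members' counts were then 13 and 3, with 28.3% of all genes higher and 27.7% lower. The 6 largest of these rises were Xaf1 (3.13, SE 0.18), Stat2 (1.76, SE 0.38), Psmb8 (1.69, SE 0.06), Psmb9 (1.51, SE 0.07), Tap1 (1.25, SE 0.08) and Samhd1 (0.98, SE 0.08). Those that went on falling were Rsad2 (-1.77, SE 0.20), Ifit1 (-1.41, SE 0.26) and Irf1 (-0.40, SE 0.08). Ddx58 also rose, by 0.31 (SE 0.12), a call lost when wild type 2 h replicate 1 (0.27) or 2 (0.35), wild type 12 h replicate 1 (0.24) or either wild type 0 h array (0.31) was left out.

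In cko 13 members were higher at 12 h than at 2 h (38.2%, against 31.4% of all genes) and 5 were lower (14.7%, against 19.5%), shares near the background. The 6 largest rises were Bst2 (2.31, SE 0.24), Xaf1 (2.18, SE 0.18), Stat2 (1.66, SE 0.38), Psmb9 (1.40, SE 0.07), Psmb8 (1.36, SE 0.06) and Trim30a (1.25, SE 0.08). The lower ones were Rsad2 (-1.19, SE 0.20), Irf7 (-1.13, SE 0.27), Cmpk2 (-1.0, SE 0.37), Ifih1 (-0.85, SE 0.17) and Irf1 (-0.80, SE 0.08). Without cko 12 h replicate 1 that count was 3, as Cmpk2 (-0.58) and Irf7 (-0.69) were no longer called. Cmpk2 was also not called without cko 2 h replicate 2 (-0.70). A fall at 2 h followed by a rise at 12 h was called for 12 members in cko. Both steps share the 2 h arrays, and the share of all genes with that course was not computed in either genotype. The rise of Zbp1 in cko (0.90) was not called when either array of cko 2 h or cko 12 h was left out (0.88 to 0.92).

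**Figure D3:**
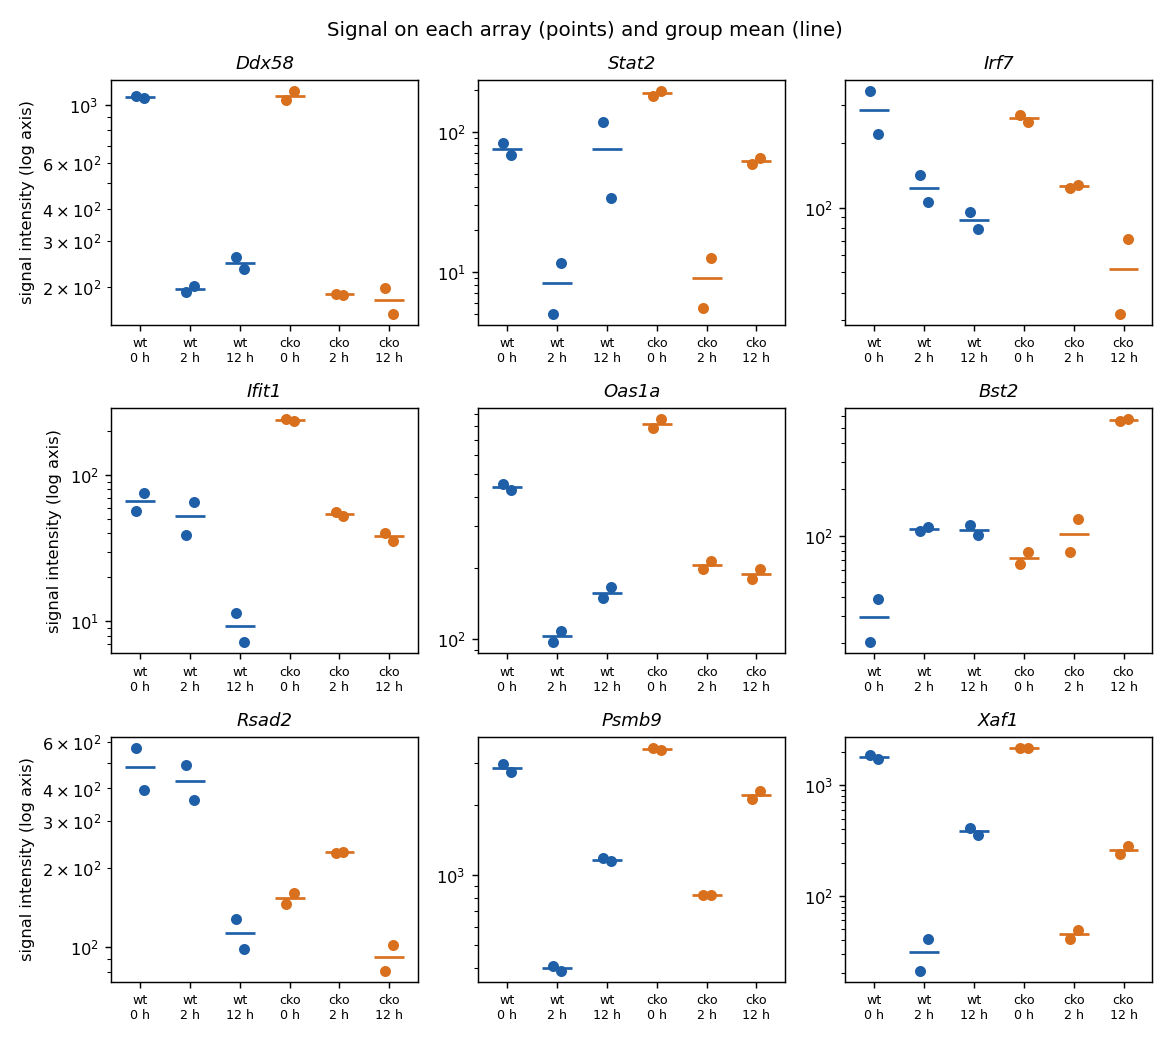
Signal intensity on each array (points, log axis) with the group mean as a line, for 9 members in the 6 groups of 2 arrays, wild type in blue and cko in orange. Xaf1 drops to between 21.1 and 49.3 at 2 h in both genotypes, Bst2 climbs to 553 and 571 in cko at 12 h, and Rsad2 lies lower in cko than in wild type at 0 h and 2 h.

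Across the 6 group means the members were alike but not uniform. Over the 561 pairs of the 34 members the median Pearson correlation of the log2 group means was 0.65, with 75 pairs above 0.90 and 60 below 0; these are descriptions over 6 means that share arrays. Xaf1 was most like Samhd1 (1.0), Tap1 most like Xaf1 (0.99) and Rtp4 most like Irf9 (0.99). Bst2 stood apart, with a median correlation of -0.42 and with 30 of its correlations below 0, followed by Rsad2, with a median of -0.01. The highest group mean was that of cko 0 h for 24 members, of wild type 0 h for 7 and of cko 12 h for 3. The lowest was that of wild type 2 h for 18, of cko 12 h for 8, of cko 2 h for 4, of wild type 12 h for 3 and of wild type 0 h for 1.

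Before stimulation the list was brighter in cko. At 0 h 15 of 34 members were higher in cko than in wild type (44.1%, against 16.7% of all genes) and 2 were lower (5.88%, against 16.6%). The median member differed by 0.29 and the median gene by 0.02. The IFIT family led, with Ifit1 at 1.63 (SE 0.26, adjusted p = 0.00032), Ifit3 at 1.26 (SE 0.28) and Ifit2 at 1.24 (SE 0.22), so that all 3 of its members were higher. Next came Stat2 at 1.16 (SE 0.38), Rtp4 at 1.10 (SE 0.22) and Bst2 at 0.97 (SE 0.24). On the arrays, Ifit1 read 241 and 235 in cko against 56.5 and 76.0 in wild type. The 2 groups did not overlap for any of these 6 genes. The genes were picked by the size of this same difference, so the lack of overlap adds no support. The share of all genes without overlap was not computed. The other 9 were Herc6, Oas1a, Irf1, Ifi35, Irf9, Parp14, Psmb9, Trim30a and Psmb8, with differences from 0.17 to 0.95. The 4 sensors differed by 0.01 to 0.71, with no call.

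Rsad2 and Trim25 were lower in cko at 0 h. Rsad2 read 145 and 161 against 571 and 395 (-1.54, SE 0.20, a 2.91-fold difference), and Trim25 read 6884 and 7056 against 10412 and 10641 (-0.59, SE 0.05). The count of higher members was 9 without wild type 0 h replicate 1 and 9 without cko 0 h replicate 1. Stat2 (1.04 to 1.28), Irf9 (0.40 to 0.48) and Herc6 (0.77 to 1.12) were not called when any 1 of the 4 arrays at 0 h was left out, and Bst2 was 0.67 and not called without wild type 0 h replicate 1. Trim30a was not called without wild type 0 h replicate 1 or cko 0 h replicate 2 (0.22 in each). Parp14 (0.26, 0.23) and Psmb9 (0.21, 0.25) were not called without wild type 0 h replicate 2 or cko 0 h replicate 1. Psmb8 was not called when any of the 8 arrays of 0 h and 12 h was left out (0.14 to 0.19). With each array scaled to its median signal the higher count was 9 (against 12.2% of all genes), and the higher share of all called genes was 38.2%, in place of 50.2%. Both groups lie in the same set of actin control ratios, but at 3.27% to 3.33% in wild type and 1.8% to 1.99% in cko. Marker lists moved in both directions at 0 h. Of 8 B cell markers tested 6 were higher in cko, with a median of 0.25 and summed signals of 92380 to 92720 against 77650 to 78580. All 6 plasmacytoid dendritic cell markers tested had positive differences, from 0.26 to 0.85 with a median of 0.44. Klk1 and Ly6d were called and the other 4 were not, and the sums given above follow Ly6d most. Of 9 myeloid markers tested 3 were lower, S100a9 (-2.04), S100a8 (-1.38) and Lyz2 (-0.63), Csf1r was higher (0.93) and 5 were not called, with summed signals of 8203 to 8367 against 18150 to 18740. Erythroid markers gave 218 to 227 against 1158 to 1284. The part of these markers in the members' difference was not tested.

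At 2 h fewer members differed between genotypes. In cko 8 were higher (23.5%, against 13.4% of all genes) and 2 were lower (against 16.4%). All 3 antigen-processing genes were among the higher ones, Psmb9 at 1.01 (SE 0.07) with 822 and 817 against 409 and 390.0, Psmb8 at 0.41 (SE 0.06) and Tap1 at 0.40 (SE 0.08). Oas1a (0.90, SE 0.13), Parp14 (0.51, SE 0.08) and Trim30a (0.44, SE 0.08) completed the 6 largest, and Irf1 (0.33) and Ifi35 (0.27) followed. Trim25 (-0.98, SE 0.05) and Rsad2 (-0.84, SE 0.20) were again the lower ones. The lower count was 1 without wild type 2 h replicate 1, when Rsad2 was -0.63 and not called, and Irf1 was not called without wild type 2 h replicate 2 (0.26) or cko 2 h replicate 2 (0.28). No IFIT gene was called at 2 h, with differences of 0.07 to 0.46.

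**Figure D4:**
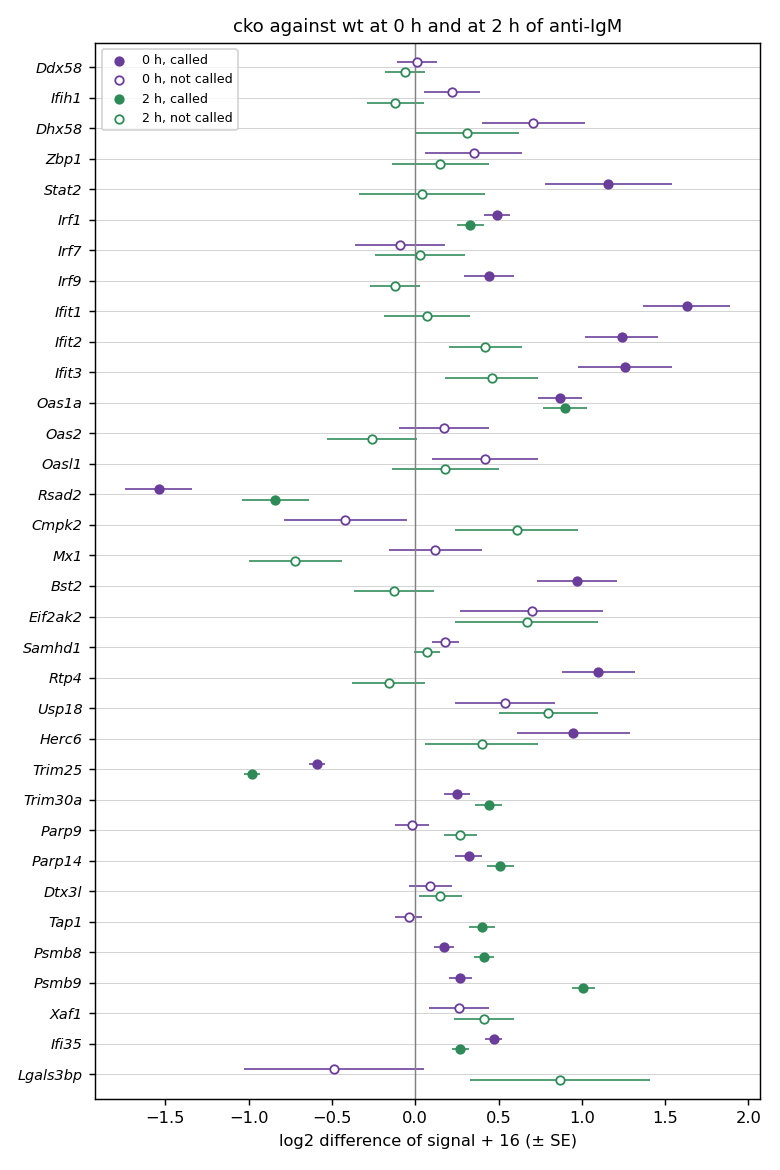
Log2 difference of signal + 16 (points, with SE as bars) between cko and wild type at 0 h (purple) and at 2 h of anti-IgM (green) for the 34 members; filled points passed the adjusted p under 0.05. The IFIT genes lie between 1.24 and 1.63 at 0 h and between 0.07 and 0.46 at 2 h, while Trim25 and Rsad2 lie left of 0 at both times.

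At 12 h the genotypes differed in both directions, in a comparison that crosses the 2 sets of actin control ratios. In cko 6 members were higher (17.6%, against 22.3% of all genes) and 8 were lower (23.5%, against 30.9%), shares near or below the background. The higher ones were Bst2 (2.21, SE 0.24), Trim30a (1.13, SE 0.08), Ifit1 (1.10, SE 0.26), Zbp1 (0.98, SE 0.29), Psmb9 (0.91, SE 0.07) and Ifit2 (0.59, SE 0.22). The 6 largest of the lower ones were Trim25 (-1.28, SE 0.05), Ifih1 (-0.78, SE 0.17), Oas2 (-0.68, SE 0.27), Ifi35 (-0.60, SE 0.05), Xaf1 (-0.54, SE 0.18) and Ddx58 (-0.45, SE 0.12), followed by Tap1 (-0.43) and Samhd1 (-0.21). Another Samhd1 probe set gave 0.57 and was called, so the direction of Samhd1 depends on the probe set. With median scaling 57.3% of all called genes were higher in cko, in place of 41.9%. Of the members 9 were then higher (against 29.4% of all genes) and 4 lower (against 22%). With the set of arrays as a term the counts were 11 higher (against 12.2% of all genes) and 2 lower (against 14%). The model then holds 1 genotype effect for all times, under which Ifih1, Xaf1, Ifi35, Tap1 and Samhd1 turned upward. Ddx58 was not called without wild type 12 h replicate 1 (-0.38) or cko 12 h replicate 2 (-0.30), nor Zbp1 without wild type 12 h replicate 2 (0.64) or cko 12 h replicate 2 (0.98). Ifit2 was not called without wild type 12 h replicate 2 (0.43) or cko 12 h replicate 1 (0.51) or 2 (0.67), nor Xaf1 without wild type 12 h replicate 1 (-0.44) or cko 12 h replicate 1 (-0.43). Oas2 (-0.37 to -0.68) and Samhd1 (-0.14 to -0.25) lost the call for 8 and 7 of the 12 left-out arrays. The lower count was 5 without wild type 12 h replicate 1.

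Over the 3 times, Trim30a and Psmb9 were higher in cko at each and Trim25 lower at each. Of the 34 members, 7 were higher at both 0 h and 2 h, and 10 were called at no time. The shares of all genes with these patterns were not computed. The Trim25 difference held its direction in each of its 3 probe sets past the filter, with values of -0.98, -1.04 and -0.44 at 2 h. The second Trim30a probe set gave -0.13, 0.47 and -0.33 at 0 h, 2 h and 12 h.

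The response itself was compared between genotypes. At 2 h the fall was deeper or the rise smaller in cko for 5 members (14.7%, against 12.4% of all genes), and the reverse held for 2 (5.88%, against 8.98%). With median scaling 56.5% of all called genes were higher, in place of 42.1%. On each side 3 members were then called, against 8.65% of all genes lower and 11.2% higher. The largest differences were those of Ifit1 (-1.56, SE 0.37), Rtp4 (-1.27, SE 0.30), Bst2 (-1.10, SE 0.34) and Psmb9 (0.74, SE 0.10). The Ifit1 response was -1.85 in cko, from its higher level at 0 h, and -0.29, not called, in wild type. The lower count was 3 without wild type 0 h replicate 1, wild type 2 h replicate 1 or 2, cko 0 h replicate 2 or cko 2 h replicate 1, and the higher count 1 without wild type 2 h replicate 1 or cko 0 h replicate 1. Bst2 was not called when any of 7 arrays was left out (-0.79 to -1.14).

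At 12 h the response was lower in cko for 11 members (32.4%, against 25.3% of all genes) and higher for 4 (11.8%, against 19.6%). The 4 largest were Rsad2 (1.29, SE 0.28), Bst2 (1.24, SE 0.34), Ifi35 (-1.07, SE 0.07) and Ifih1 (-1.0, SE 0.24). This comparison crosses the 2 sets of actin control ratios and cannot be fitted with the set as a term. With median scaling the lower count was 3 (against 15.6% of all genes), and 64% of all called genes were higher, in place of 43.7%. Without wild type 0 h replicate 2 the lower count was 7.

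Genes upstream of the list were divided. Of 16 tested genes for interferon receptors, JAK and STAT proteins and their inhibitors, 4 were lower (25%, against 37.4% of all genes) and 7 higher (43.8%, against 24.4%) at 2 h in wild type, with a median of 0.18. Tyk2 fell, from 1101 and 1024 to 290.4 and 253 (-1.91, SE 0.10), as did Ptpn6 (-1.47, SE 0.08), a phosphatase that dampens receptor signalling, whereas Stat3 rose (1.47, SE 0.22). Ifnar1 read 633 and 646 at 0 h and 865 and 750.2 at 2 h in wild type (0.33, SE 0.11), and 571 and 674 and then 878 and 807 in cko (0.43, SE 0.11). Ifnar2 differed by 0.31 (SE 0.10) in wild type and by -0.35 (SE 0.10) in cko at 2 h, and Jak1 by 0.08 (SE 0.06) and 0.44 (SE 0.06).

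Of 22 tested genes that lead to interferon production, 11 were lower (50%, against 37.4% of all genes) and 9 higher (40.9%, against 24.4%) at 2 h in wild type. The adaptors Sting1 (-2.67, SE 0.08) and Mavs (-2.47, SE 0.14), which relay DNA and RNA sensing, fell, and Tnfaip3 (2.23, SE 0.08), an inhibitor of NF-kappaB signalling, rose. The interferon genes Ifnb1, Ifna1, Ifna2 and Ifna4 lay below the filter, at no more than 41.3 on any array. Ifng passed it, with 173 and 149.9 at 0 h, 69.1 and 60.5 at 2 h and 375 and 434 at 12 h in wild type, and 133 and 124, 73.3 and 80.9, and 538 and 517 in cko. It was lower at 2 h (-1.13, SE 0.15 and -0.64, SE 0.15) and higher at 12 h (1.25, SE 0.15 and 1.91, SE 0.15) in both genotypes.

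Other interferon-induced genes outside the list were also mostly lower. Of 39 tested, 29 were lower (74.4%, against 37.4% of all genes) and 1 higher at 2 h in wild type, and 26 were lower (66.7%, against 40.4%) and 1 higher in cko, with medians of -1.04 and -0.95. The largest changes in wild type were falls of Pml (-3.40, SE 0.15), which organises nuclear bodies, Uba7 (-2.71, SE 0.20), the enzyme that activates ISG15, and Gbp2 (-2.58, SE 0.17), a guanylate-binding protein. At 12 h 29 were lower (against 24.1% of all genes) and 1 higher in wild type and 23 were lower (against 34.1%) and 4 higher in cko. At 0 h 9 were higher in cko than in wild type (23.1%, against 16.7% of all genes) and 3 lower (7.69%, against 16.6%), with a median of 0.09, and Tdrd7 (-1.24), Ifi47 (0.77) and Gbp2 (0.66) differed most.

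The rest of the MHC class I pathway was divided. Of 13 genes tested 5 were lower (38.5%, against 37.4% of all genes) and 6 higher (46.2%, against 24.4%) at 2 h in wild type, with a median of 0.01. Pdia3 (2.73, SE 0.26), of the peptide-loading complex, and Erap1 (1.39, SE 0.12), which trims peptides, rose, and Psmb10 (-2.19, SE 0.07), the remaining catalytic subunit of the immunoproteasome, fell. At 12 h 9 of the 13 were higher in cko than in wild type (69.2%, against 22.3% of all genes) and 2 were lower (15.4%, against 30.9%), with a median of 0.65. That comparison crosses the sets of actin control ratios, and median scaling moved the higher share of all called genes from 41.9% to 57.3%.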

How the data were processed

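RNA from 12 samples was measured on whole-genome mouse arrays with 45101 probe sets. Starting from 100 ng, RNA went through 2 rounds of linear amplification before 10 µg was put on each array, per the labels' protocols, and GCOS 1.4 is named in the submitters' processing notes. The authors deposited linear signal intensities, scaled so that the mean after trimming 2% at either end was 250 on every array. Neither the summary algorithm nor detection calls are stated in those sources. Precision is limited by the number of arrays.

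Without further normalization, values became log2(signal + 16). Left out were 64 control probe sets, 9160 without a symbol and 932 with more than 1; of the 34945 remaining, 99.4% matched RefSeq. Probe sets above the 40th percentile of mean log2 values, 5.24, were kept, 20967 in all, and each gene was read through the one with the highest mean, which gave 11709 genes (5355 with several probe sets). The 6 group means were fitted with limma 3.58.1 in R 4.3.3 (lmFit, eBayes with a trend, 6 residual degrees of freedom), with 11 two-sided contrasts, each adjusted by Benjamini-Hochberg over all genes. The script was tested on simulated data.

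The members, lists, roles and alternatives were chosen with earlier results of these data known. Every member is named. Per role, array values are given for up to 4 members with the largest range of group means. The 6 largest called falls and rises are given in full for some contrasts only, and for 12 h against 0 h some of the largest falls are left out. Alternatives were pseudocounts of 1 and 64, quantile normalization, median scaling, a filter at the 60th percentile or none, averaging over a gene's probe sets, a replicate block, the control-probe set as a term, and leaving out each array. Same-numbered arrays did not pair: of 15 pairs 0 correlated above 0.1 (-0.02 to 0.02). Promoters and symbols came from RefSeq tables (GRCm38.p6).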

Additional observations from a re-analysis of the deposited data

Results flagged for a closer look

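The responses of the genotypes to anti-IgM differed by an interaction term for the members that follow, each given as the cko response minus the wild-type response in log2(signal + 16), from limma with an adjusted p under 0.05. At 2 h the term was negative for 5 members, namely Ifit1 (-1.56), Rtp4 (-1.27), Bst2 (-1.10), Trim25 (-0.38) and Ifi35 (-0.21), and positive for 2, namely Psmb9 (0.74) and Tap1 (0.44). At 12 h it was negative for 11 members: Ifi35 (-1.07), Ifih1 (-1.0), Rtp4 (-0.99), Xaf1 (-0.81), Trim25 (-0.69), Oas1a (-0.63), Irf1 (-0.55), Ddx58 (-0.46), Samhd1 (-0.39), Tap1 (-0.39) and Parp14 (-0.35). It was positive at 12 h for 4, namely Rsad2 (1.29), Bst2 (1.24), Trim30a (0.88) and Psmb9 (0.64). Tap1, Ifi35 and Bst2 at 2 h and Ddx58, Samhd1, Rtp4, Parp14 and Xaf1 at 12 h were not called when some 1 array was left out. Another Samhd1 probe set gave 0.97 at 12 h and another Ifi35 probe set 0.75 at 2 h, both called, so these directions depend on the probe set. The 12 h terms compare wild type within 1 set of actin control ratios and cko across the 2 sets, and the part of that difference was not tested.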

How the results depend on the processing

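Of 7654 alternatives to the 374 log2 differences of the members, 7263 kept the side of the threshold and turned no called value. A value called in neither fit counts among these even where its sign changed. Of the rest, 273 lost a call, 88 gained one and 30 turned around a value that was called as reported (20) or only under the alternative (10). The replicate block gave 25 members lower and 1 higher at 2 h in wild type, as without it, and 7203 in place of 7247 called genes; it moved no member count by over 1.5 times and cost 2 single calls, Usp18 (12 h against 2 h in wild type) and Oas2 (genotypes at 12 h). The cause of the changes listed here was not tested. Counts of members that moved by over 1.5 times follow, each with the share of all genes under the same alternative in brackets. Higher at 12 h in wild type: 1 with quantile normalization (26.4%) and 1 with the control-probe set as a term (21.9%). Higher at 2 h in cko: 2 with quantile normalization (25.8%), 2 with median scaling (32%), 0 without a filter (15.8%) and 0 with a mean over each gene's probe sets (26.1%). Higher at 12 h in cko: 1 with the probe-set mean (26.6%) and 1 with the control-probe set (21.9%). Higher in cko at 0 h: 9 with median scaling (12.2%). Genotypes at 12 h: 4 lower with median scaling (22%), 2 lower (14%) and 11 higher (12.2%) with the control-probe set. With a filter at the 60th percentile 3 were higher (29.6%). Response difference at 2 h: 3 lower with quantile normalization (11.6%), median scaling (8.65%) or no filter (7.17%). Response difference at 12 h: 3 lower with median scaling (15.6%) and 2 higher with the probe-set mean (18.6%).

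Leaving out each array gave, for members lower and higher in turn: 22 to 26 and 1 to 1 at 2 h in wild type, 18 to 21 and 2 to 2 at 12 h, and 3 to 3 and 14 to 15 for 12 h against 2 h. In cko these were 26 to 27 and 0 to 1, 23 to 26 and 2 to 2, and 3 to 6 and 12 to 13. For cko against wild type they were 2 to 3 and 9 to 15 at 0 h, 1 to 2 and 7 to 9 at 2 h, and 5 to 9 and 4 to 6 at 12 h. For the response differences they were 3 to 6 and 1 to 3 at 2 h and 7 to 11 and 4 to 5 at 12 h.

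The control-probe set differs within a time only at 12 h, so its term cannot separate array quality from a response of cko cells there. Values called in either fit that turned around with the control-probe set as a term were, in wild type, Bst2 (-0.83) and Ifi35 (0.20) at 2 h, and Ddx58 (-0.09), Oas1a (-0.11), Bst2 (2.04) and Ifi35 (-0.05) for 12 h against 2 h. In cko they were Ifih1 (0.70), Rsad2 (-0.75) and Ifi35 (0.20) at 2 h, and Trim30a (-0.44) and Ifi35 (0.14) at 12 h. For cko against wild type at 12 h they were Ifih1 (0.05), Irf1 (0.41), Samhd1 (0.12), Parp14 (0.41), Tap1 (0.18), Xaf1 (0.34) and Ifi35 (0.37), of which Irf1 and Parp14 were called only with that term, like Bst2 for 12 h against 2 h and Ifih1 at 2 h in cko. With quantile normalization Psmb8 (-0.19) and Ifi35 (-0.11) turned at 12 h in wild type, Ifi35 (0.07) in the response difference at 2 h and Psmb8 (0.23) in that at 12 h; with median scaling Psmb8 (0.23) turned at 12 h in cko. With the probe-set mean Trim30a (-0.28) turned at 12 h in cko, Samhd1 (-0.36) between genotypes at 2 h, Ddx58 (0.03), Dtx3l (-0.44), Psmb8 (-0.39) and Ifi35 (0.04) at 12 h, and Ifi35 (0.10) in the response difference at 2 h. All Psmb8 values here, Dtx3l, and Samhd1 at 2 h were called only under the alternative.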
